A study of Mus musculus with 8 samples.

Results

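The 10 genes described here mark hepatic stellate cells and the myofibroblasts that arise from them: Acta2, Des, Tagln, Pdgfrb, Lrat, Tgfb1, Lox, Vim, Dcn and Lum. They were taken as every non-control probe that carries one of these gene names on a whole-genome mouse array, which gave 18 of 41174 probes. The mice were male wild-type C57BL/6 animals (C57BL/6J in the study's methods), by their labels 14 to 17 weeks old at the start, while the methods give a wider range of ages. Liver RNA came from animals kept for 4 weeks on a standard chow diet (STD, n = 4) or on an atherogenic diet (ATH, n = 4), a feed rich in fat and cholesterol that also holds cholic acid. Each array carried the Cy3-labelled cRNA of 1 snap-frozen liver, so that each value below is 1 mouse.

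Stellate cells lie between the sinusoidal endothelium and the hepatocytes, where they store vitamin A as retinyl esters while quiescent. In injured liver they lose their lipid droplets, take on a contractile cytoskeleton and secrete collagen, a change that platelet-derived growth factor (PDGF) and transforming growth factor beta (TGF-beta) are known to drive. Lrat, lecithin retinol acyltransferase, esterifies retinol and is the quiescent marker among the 10 genes. Des and Dcn are made in either state, and the remaining 7 genes are markers or drivers of the activated state. In whole liver, more cells of a type and more RNA per cell cannot be told apart.

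Values are given as a scaled log2 signal, which is the log2 of the array's processed signal minus the 75th percentile of that array, so that 0 is the level of that percentile and 1 unit is a doubling. A probe was counted as detected where it was well above background on at least 3 of 4 arrays of either diet. By this measure 15 of the 18 probes were detected, and they stood for 9 of the 10 genes. Lox was the gene without a detected probe. Each of the 9 genes was represented by its brightest probe, which was above background on all 8 arrays, so that none of the 9 entered through the ATH arrays alone. No probe of the 10 genes was saturated. Levels are compared only within a probe, since probes differ in how well they bind.

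Between 72.35% and 77.76% of spots were well above background on the 8 arrays. The 4 STD arrays shared 1 slide and 1 scan and the 4 ATH arrays another, so that diet and slide cannot be told apart. The 75th percentile itself was higher on the ATH arrays by 0.45 on the log2 scale, and the median of the 10 spike-in RNAs by 0.14. Scaling therefore moved every fold change. The median over 16557 named genes was -0.14 on the log2 scale after scaling, 0.17 when the arrays were set level on the spike-ins and 0.31 without scaling. Over 31055 probes tested, 949 were called higher and 1534 lower at a 5% false discovery rate after scaling. The split was 1028 and 842 with median scaling, 1043 and 879 with quantile normalization, 2602 and 409 with spike-in scaling, and 6990 and 374 without scaling. The tests measure the spread among 4 mice of a diet on 1 slide each.

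The probe sequences show which piece of a transcript a value rests on, and 5 are printed here because they hold protein-coding sequence. They are written in lower case, with the stop codon that ends the reading frame in capitals where the probe reaches it.
Acta2 probe A_51_P450957: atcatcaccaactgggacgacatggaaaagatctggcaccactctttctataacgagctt
Tagln probe A_52_P517683: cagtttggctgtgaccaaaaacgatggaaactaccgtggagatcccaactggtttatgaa
Des probe A_51_P335969: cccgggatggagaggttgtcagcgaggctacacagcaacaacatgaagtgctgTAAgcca
Tgfb1 probe A_51_P390715: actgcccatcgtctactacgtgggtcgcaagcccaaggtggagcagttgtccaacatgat
Dcn probe A_51_P334104: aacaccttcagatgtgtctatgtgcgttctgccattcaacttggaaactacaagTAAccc
Positions are those that the array files give on mouse build mm7. The Acta2 probe lies at chr19:33949738-33952992 on the minus strand. Its 60 bases cover a span of 3255 bases, so that the probe joins separate exons. Other actins share most of their coding sequence with Acta2, and binding of their transcripts to this probe was not tested. The Des probe at chr1:75593023-75593248 on the plus strand also crosses an intron, with 60 bases over a span of 226. The Tagln probe lies at chr9:45888956-45889015 on the minus strand, the Tgfb1 probe at chr7:22478890-22478949 on the plus strand and the Dcn probe at chr10:97080086-97080145 on the plus strand, each as an unbroken stretch. For Des and Dcn the stop codon begins at base 54 and base 55 of the probe, so that these probes read the last codons of the protein.

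Of the 9 genes tested, only Vim passed the 5% threshold, and it was higher in mice administered the ATH diet. Tgfb1 and Pdgfrb did not pass, although all 4 ATH mice lay above all 4 STD mice for each of them, as for 7.59% of all named genes. Acta2 and Tagln, the cytoskeletal genes used most often to mark myofibroblasts, differed by 0.27 and -0.21 on the log2 scale and did not pass, and neither did the quiescent marker Lrat, which differed by 0.35. The test was limma's moderated test with Benjamini-Hochberg adjustment over all detected probes. The share of all named genes called higher at the same threshold was 4.05%, against 1 of 9 here. At 1%, the level used in the study, 0.260% of all named genes were called higher and none of the 9 genes passed with limma. An unadjusted limma p under 0.05 was reached by 5 of the 9, and by 8817 of the 31055 probes tested. With the replicate number as a block in limma, 2.07% of all named genes were called higher and none of the 9 passed at 5%. Again 5 of 9 had an unadjusted p under 0.05 in this fit, as had 9857 of the 31055 probes. The call of Vim was also lost with no detection filter and in the unequal-variance test of the study's methods, as recomputed here. That recomputed test called 22 of the 31055 probes at 5% and none at 1%, whereas the study lists probes changed at 1%. The call of Vim was lost too when any STD array was left out, and without ATH replicate 3 or ATH replicate 4.

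**Figure D1:**
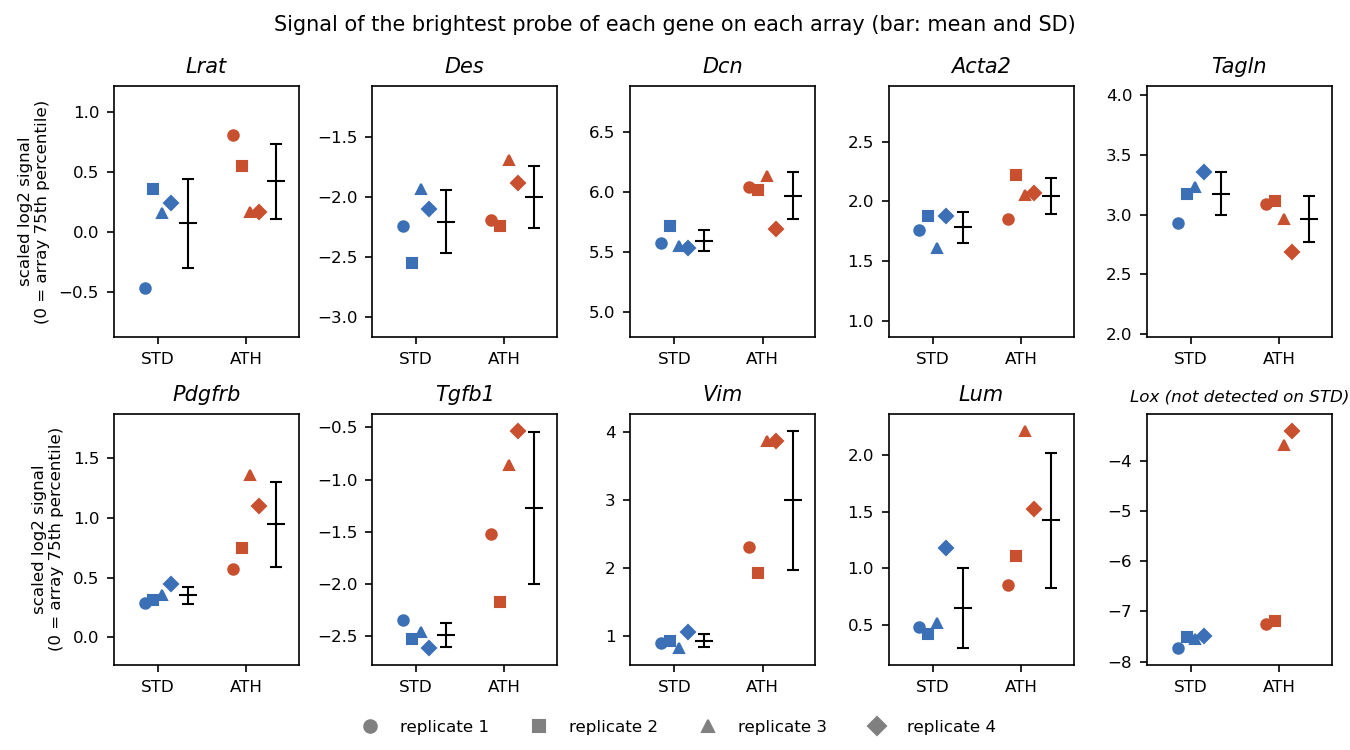
Scaled log2 signal (vertical axis, where 0 is the 75th percentile of the array) of the brightest probe of each gene in 4 STD mice and 4 ATH mice, with the mean and SD of each diet as bars, and no bar for Lox. Every panel spans at least 2 log2 units. All ATH points lie above all STD points for Pdgfrb, Tgfb1 and Vim, and ATH replicates 3 and 4 are the highest points for Vim, Tgfb1 and Lox.

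Lrat, the enzyme that fills the vitamin A store, was read by 2 probes. Its brighter probe, A_52_P669005 at chr3:82997855-82997914 on the minus strand, read -0.47, 0.36, 0.16 and 0.24 in STD replicates 1 to 4. It read 0.81, 0.55, 0.17 and 0.17 in the ATH mice in the same order. STD replicate 1 was the lowest and ATH replicate 1 the highest, and the other mice of the diets overlapped. The means were 0.07 ± 0.37 (SD, n = 4) in STD and 0.43 ± 0.31 (SD, n = 4) in ATH liver, a difference of 0.35 on the log2 scale (SE 0.22, limma adjusted p = 0.324). The dimmer probe, A_51_P350033, gave 0.17 (SE 0.21, limma adjusted p = 0.608) and overlapped as well. The quiescent marker was thus not lower in ATH liver by either probe, and without scaling it was called higher (0.80 on the log2 scale).

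Des encodes desmin, an intermediate filament protein of stellate cells and muscle, and was measured on 10 spots per array. In the STD mice it read -2.24, -2.55, -1.93 and -2.10. The ATH mice gave -2.19, -2.24, -1.69 and -1.88. The diets overlapped, with the third replicate highest in each, and the difference was 0.21 (SE 0.18, limma adjusted p = 0.48).

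Dcn encodes decorin, a small leucine-rich proteoglycan that binds collagen and TGF-beta. Its bright probe read 5.58, 5.72, 5.55 and 5.53 in the STD mice. In the ATH mice it read 6.04, 6.02, 6.14 and 5.69. Only ATH replicate 4 fell within the STD range, and the difference of 0.38 did not pass (SE 0.13, limma adjusted p = 0.108). It passed in 4 of the 20 alternative settings. A second Dcn probe near background, A_52_P252726, differed by -0.11 (SE 0.23).

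Acta2 encodes alpha smooth muscle actin, the usual marker of activated stellate cells. The probe printed above read 1.76, 1.88, 1.61 and 1.88 in the STD mice. It read 1.85, 2.22, 2.05 and 2.07 in the ATH mice. ATH replicate 1 lay among the STD mice and the other ATH mice lay above them. The means of 1.78 ± 0.13 (SD, n = 4) and 2.05 ± 0.15 (SD, n = 4) differed by 0.27 (SE 0.13, limma adjusted p = 0.207), and it passed when the arrays were set on the spike-ins (0.58) or left unscaled (0.71).

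Of the other Acta2 probes, the brightest differed in the same direction and by a similar size, with a larger error, and the rest differed by less or in the opposite direction. A_52_P420504, at chr19:33942803-33942862 and measured on 8 spots, read -1.27, -0.80, -0.77 and 0.55 in STD and -1.15, -0.37, 0.46 and 0.16 in ATH mice, a difference of 0.35 (SE 0.44, limma adjusted p = 0.633). STD replicate 4 was the highest of all 8 mice on this probe. A_52_P239556, at chr19:33941939-33941997, was lower in every ATH mouse than in every STD mouse, as were 13.8% of all detected probes, and differed by -0.36 (SE 0.14, limma adjusted p = 0.138). Its sign depended on the scaling, being -0.05 on spike-in scaling and 0.08 without scaling. A_52_P210078, at chr19:33942440-33942499 and close to background, differed by 0.02 (SE 0.43). The fifth probe, A_52_P644232, was above background on 1 ATH array only. None of the 4 detected probes passed after scaling by the 75th percentile, where their differences ran in either direction, while all 4 differences were above 0 without scaling.

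Tagln encodes transgelin, an actin-binding protein of smooth muscle and myofibroblasts. Its bright probe, A_51_P450527 at chr9:45888137-45888196 on the minus strand, read 2.93, 3.17, 3.23 and 3.36 in the STD mice. It read 3.09, 3.11, 2.96 and 2.69 in the ATH mice. The diets overlapped and the difference was -0.21 (SE 0.15, limma adjusted p = 0.375). The sign depended on the scaling, being 0.10 on spike-in scaling and 0.24 without scaling. The dimmer probe, printed above, differed by 0.38 (SE 0.35, limma adjusted p = 0.504), with -1.45 in STD replicate 4 and -0.98 in ATH replicate 3 as its highest values.

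**Figure D2:**
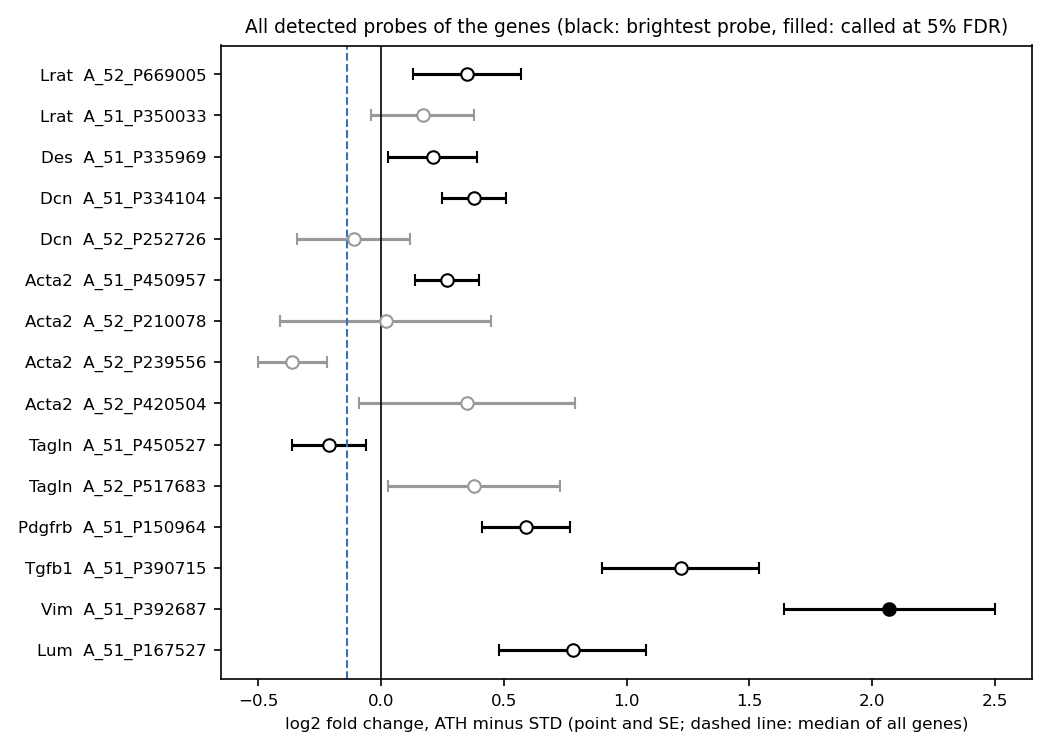
Log2 fold change (horizontal axis, ATH minus STD) with its SE for the 15 detected probes, listed by gene, where the dashed line is the median of all named genes at -0.14. Only the Vim probe is filled as called, and the probes of Acta2, of Tagln and of Dcn fall on either side of 0 at this scaling. Without scaling, no detected Acta2 or Tagln probe lies below 0.

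Pdgfrb encodes the PDGF receptor beta, through which activated stellate cells are driven to divide and migrate, and its probe A_51_P150964 maps to chromosome 18. It read 0.29, 0.31, 0.35 and 0.45 in the STD mice. The ATH mice read 0.57, 0.75, 1.36 and 1.10. All ATH mice lay above all STD mice. The mean was 0.35 ± 0.07 (SD, n = 4) in STD and 0.95 ± 0.35 (SD, n = 4) in ATH liver, and the difference of 0.59 did not pass the threshold (SE 0.18, limma adjusted p = 0.073). It passed in 4 of the 20 alternative settings.

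Tgfb1 encodes the TGF-beta ligand best known for driving collagen synthesis, which macrophages also make. On the printed probe, with 10 spots per array, the STD mice read -2.35, -2.53, -2.47 and -2.62. The ATH mice read -1.52, -2.18, -0.86 and -0.53. ATH replicate 2 lay close above the STD mice, and ATH replicates 3 and 4 were the highest. The difference of 1.22 fell just outside the threshold (SE 0.32, limma adjusted p = 0.051) and passed in 7 of the 20 alternative settings.

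Vim encodes vimentin, an intermediate filament protein of mesenchymal cells and leukocytes. Its probe, A_51_P392687 at chr2:13521763-13521822 on the plus strand, read 0.90, 0.93, 0.82 and 1.05 in the STD mice. The ATH mice read 2.31, 1.93, 3.87 and 3.87. The STD mice were tightly grouped, and all ATH mice lay above them, ATH replicates 3 and 4 by the most. From 0.93 ± 0.10 (SD, n = 4) the mean went to 2.99 ± 1.02 (SD, n = 4), an increase of 2.07 on the log2 scale (SE 0.43, limma adjusted p = 0.0306, and 0.0504 with the replicate block). In the unequal-variance test recomputed here the adjusted p of Vim was 0.178, and in limma without the detection filter it was 0.0526. A second Vim probe, A_52_P287532, was not above background on any array.

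Lum encodes lumican, a leucine-rich proteoglycan of the collagen matrix, and its probe A_51_P167527 lies at chr10:97135063-97135122 on the plus strand. In STD mice it read 0.48, 0.42, 0.52 and 1.18. The ATH mice gave 0.85, 1.11, 2.22 and 1.53. STD replicate 4 stood apart from the other STD mice and lay above ATH replicates 1 and 2. The difference was 0.78 (SE 0.30, limma adjusted p = 0.131).

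Lox encodes lysyl oxidase, which cross-links collagen and elastin, and its probe A_51_P300493 maps to chromosome 18. It was not well above background on any STD array, where it read -7.73, -7.51, -7.54 and -7.49. On ATH replicates 1 and 2 it read -7.25 and -7.19 and was likewise not well above background, while ATH replicates 3 and 4 read -3.68 and -3.40 and were. The dimmest signal among probes well above background had a mean of -5.47 over the STD arrays, and ATH replicates 3 and 4 lay above that level. The mean of the 4 ATH arrays (-5.38) includes ATH replicates 1 and 2, whose readings have no lower limit. No bound on a fold change was therefore drawn from it.

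The ATH mice differed among themselves more than the STD mice did for Vim, Tgfb1 and Pdgfrb. Taken against the STD mean, Vim was higher by 1.38, 1.0, 2.94 and 2.94 in ATH replicates 1 to 4, and Tgfb1 by 0.97, 0.31, 1.63 and 1.96. Lum was higher by 0.20, 0.47, 1.57 and 0.88, and Pdgfrb by 0.21, 0.40, 1.01 and 0.75. In these 4 genes the third and the fourth ATH mouse were the highest. Over the 9 genes, the third ATH mouse was the highest ATH mouse for 5 and the lowest for none, while the fourth was the highest for 1 and the lowest for 3. The median difference to STD over the 15 macrophage and Kupffer cell markers was 1.19, 0.56, 2.17 and 2.33 in the same mice, so that these markers were also highest in the third and the fourth. The summed level of the marker list, in multiples of the 75th percentile, was 126 to 151 in STD and 240 to 1000 in ATH mice. All 15 markers were higher, against 34.9% of all named genes, and 8 were called higher (5 with the block), against 4.05%. Cd68, a lysosomal macrophage protein, was called at 1.92 (SE 0.48, limma adjusted p = 0.046, and 0.0551 with the block), while Emr1, a macrophage surface receptor, differed by 1.54 and did not pass (SE 0.46, limma adjusted p = 0.0702). The part of macrophages in the Vim and Tgfb1 values was not tested.

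The question of quiescent against activated markers was also put within each array, as the difference between a gene and Lrat. A scaling that shifts all log2 values of an array equally leaves this difference unchanged. Quantile normalization is not such a scaling. Set to 0 at the STD mean, the Vim difference was 0.64, 0.52, 2.84 and 2.85 in ATH replicates 1 to 4, with a mean of 1.71. It exceeded all STD mice with either Lrat probe, although ATH replicate 2 lay only just above STD replicate 1 (0.51 with the brighter probe), and no other activated gene did so. For Tgfb1 the mean was 0.86, with ATH replicate 2 at -0.17 and the diets overlapping. Pdgfrb had a mean of 0.24 and Lum of 0.43, each with overlap. Acta2 moved by -0.09 relative to Lrat with the brighter Lrat probe and by 0.09 with the dimmer one. Tagln was lower relative to Lrat in every ATH mouse than in every STD mouse, with a mean of -0.56. However, ATH replicate 3 (-0.31) lay only just below STD replicate 2 (-0.29), and the diets overlapped against the dimmer probe (mean -0.38). Des and Dcn moved by -0.15 and 0.02. These are descriptions of chosen genes and carry no test.

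**Figure D3:**
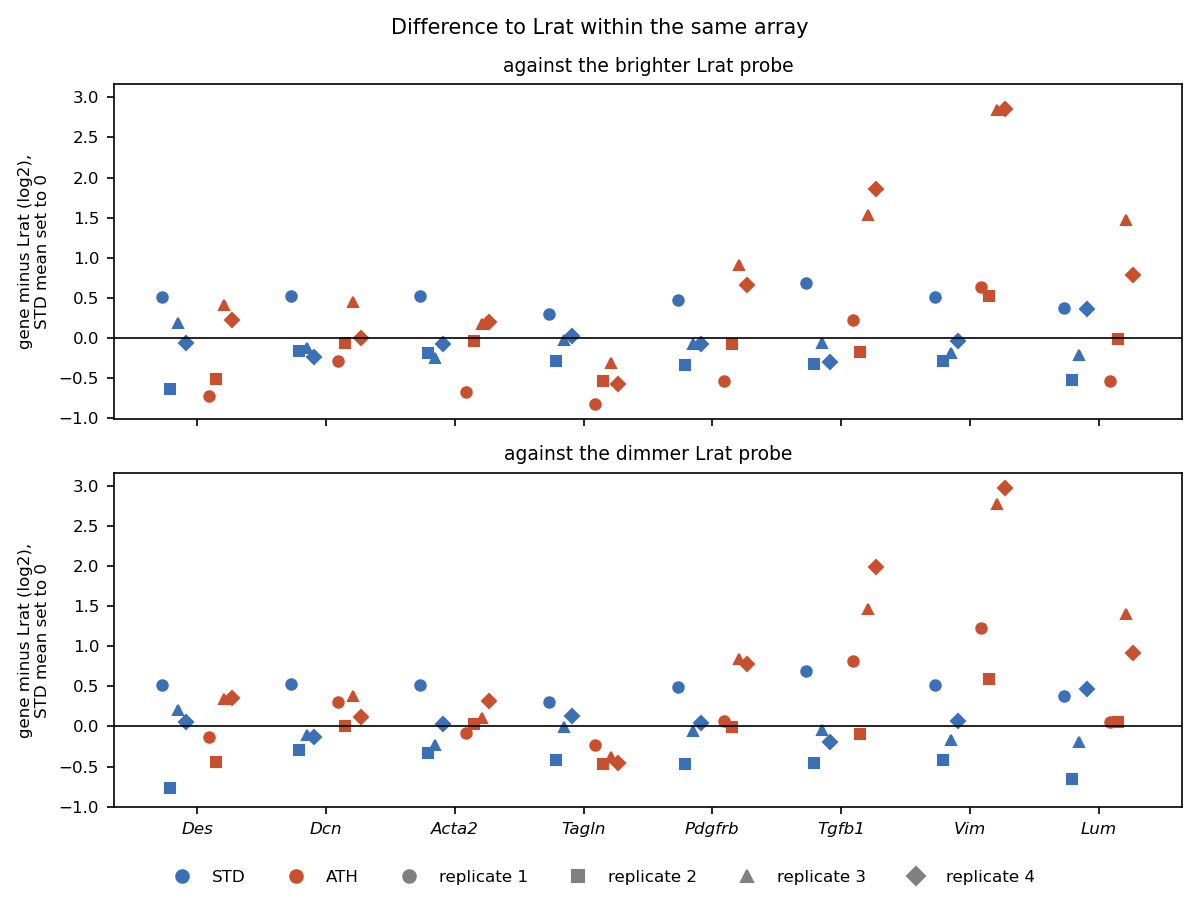
Difference between each gene and Lrat on the same array (vertical axis, log2, with the STD mean of each gene at 0) for 4 STD and 4 ATH mice, against the brighter Lrat probe in the upper panel and the dimmer in the lower. Vim alone has all ATH points above all STD points in both panels, and ATH replicates 3 and 4 are its highest points.

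Other genes of the same pathways were read beside the 10, in lists of which the members are given by count. Among 24 other genes of quiescent stellate cells, 2 were called higher and 1 lower, with a median of 0.07. The 2 called higher are 8.33% of the list, against 4.05% of all named genes, and 1 of 24 lower is near the background of 5.30%. Cygb, a globin of stellate cells, rose by 0.70 and Ngfr, the p75 neurotrophin receptor, by 0.60 (limma adjusted p = 0.039 for each). Pparg, the adipogenic nuclear receptor, fell by 1.15 (limma adjusted p = 0.0208). Reln, reelin, differed by 0.19 and did not pass (limma adjusted p = 0.577). With the replicate block only Pparg of the 24 was called, and the limma adjusted p was 0.0542 for Cygb and 0.0751 for Ngfr.

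Of 16 detected genes of retinoid storage and turnover (18 listed), none was called higher and 3 were called lower, against 5.30% of all named genes lower. Rdh11, a retinal reductase, fell by 1.70 and Aldh1a1, which makes retinoic acid, by 1.22 (limma adjusted p = 0.0166 and 0.0075). Ces1d, a carboxylesterase read for the list entry Ces1, fell by 0.90 (limma adjusted p = 0.0486). The list's median of -0.32 was 0.13 without scaling, and with the block Aldh1a1 alone was called (limma adjusted p = 0.0524 for Rdh11 and 0.0569 for Ces1d). Many genes of this list are made chiefly by hepatocytes, and 3 of the 15 hepatocyte markers were called lower as well (1 with the block, and 1 with quantile, median or spike-in scaling). Their summed level was 4980 to 5270 in STD and 3420 to 4490 in ATH mice, and the part of hepatocytes in the retinoid values was not tested.

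Of 19 detected contractile genes (20 listed) 3 were called higher and none lower, which is 15.8% higher against 4.05% of all named genes. Cnn2, a calponin, rose by 1.08, Tpm4, a tropomyosin, by 0.88 and Actn1, an actin cross-linker, by 0.49 (limma adjusted p = 0.0399, 0.0335 and 0.0425). These 3 proteins belong to the actin cytoskeleton of many cell types, and with the block 3 contractile genes were again called, without Actn1 (limma adjusted p = 0.0577) and with Flna, a filamin named here after its value was seen (1.17, limma adjusted p = 0.0455 with the block and 0.0543 without). The smooth muscle genes Myl9, Cnn1 and Tpm2 differed by -0.07, -0.55 and 0.01, and none passed (limma adjusted p = 0.861, 0.60 and 0.986). Cnn1 varied widely among mice, with an SD of 1.08 in STD and 1.13 in ATH liver. No gene of the 7 detected other intermediate filament genes was called by limma, and their median was 0.06.

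In the PDGF family all 5 other genes were higher, against 34.9% of all named genes, and 1 of the 5 was called, against 4.05%. It was Pdgfa, a ligand that rose by 1.14 (SE 0.19, limma adjusted p = 0.0167). Pdgfra, the alpha receptor, differed by 0.68 (limma adjusted p = 0.0509), with all ATH mice above all STD mice. In the TGF-beta pathway 3 of 26 detected genes (28 listed) were called higher and 1 lower, with a median of 0.20. The 3 genes are 11.5% of the list, against 4.05% of all named genes, and 1 of 26 lower is near the background of 5.30%. Skil, a repressor of SMAD signalling, rose by 0.90, Tgfbi, a matrix protein induced by TGF-beta, by 0.88 and the receptor Tgfbr1 by 0.59, while Ltbp1, which holds latent TGF-beta in the matrix, fell by 0.77 (limma adjusted p = 0.0222, 0.0374, 0.0433 and 0.0353). The receptor Tgfbr2 differed by 0.51 and did not pass (limma adjusted p = 0.051). With the block 2 of the TGF-beta genes were called, without Tgfbr1 and Ltbp1 (limma adjusted p = 0.0688 and 0.0512).

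The matrix list had 5 of 27 detected genes called higher (30 listed) and none lower, with a median of 0.32. This is 18.5% called higher, against 4.05% of all named genes. S100a6, a calcium-binding protein, rose by 1.88, the fibrillar collagen gene Col3a1 by 1.74, the fibrillin gene Fbn1 by 1.13 and Loxl2, a lysyl oxidase relative, by 1.10 (limma adjusted p = 0.0306, 0.0327, 0.0465 and 0.026). Col1a1 differed by 2.22 and Col1a2 by 1.57, the chains of type I collagen, with an SD of 1.64 for Col1a1 among the ATH mice, and neither passed (limma adjusted p = 0.0909 and 0.0749). Loxl1 differed by 0.78, the proteoglycan gene Bgn by 0.50 and Timp1, an inhibitor of matrix proteases, by 0.21 (limma adjusted p = 0.136, 0.262 and 0.619). With the block 3 of the matrix genes were called, without Fbn1 (limma adjusted p = 0.092) and without Sparc, the fifth gene called above.

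**Figure D4:**
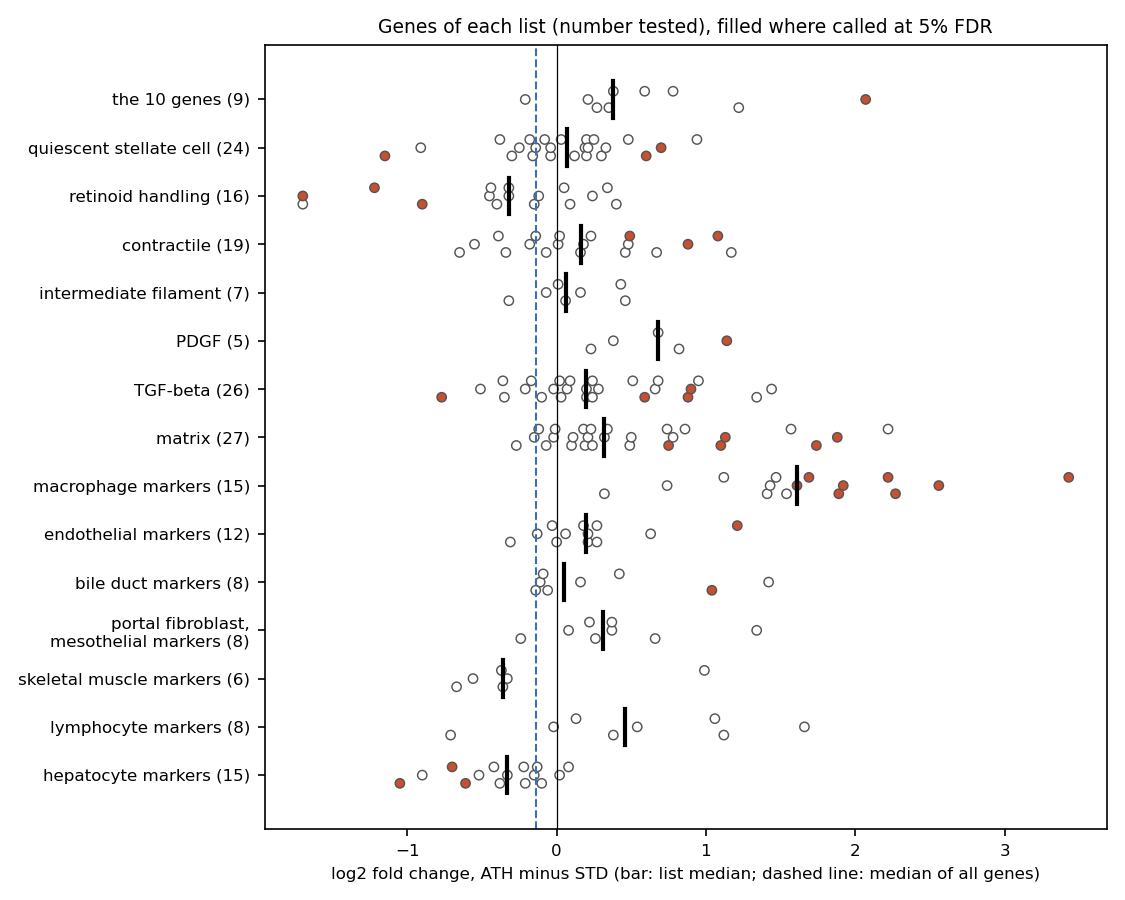
Log2 fold change (horizontal axis, ATH minus STD) of each tested gene of each list, filled where called at 5%, with the list median as a bar and the median of all named genes, -0.14, as a dashed line. The macrophage markers lie farthest to the right, with a median of 1.61, the 9 genes have a median of 0.38, and the skeletal muscle, hepatocyte and retinoid lists lie to the left, with medians of -0.36, -0.33 and -0.32.

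The 9 genes were higher in ATH liver by a median of 0.38, and 8 of the 9 were higher, against 34.9% of all named genes. Without scaling their median was 0.82, against 0.31 for all named genes, and 7 of the 9 were called. With spike-in scaling it was 0.69, against 0.17, and 5 were called. Quantile normalization and median scaling each called 2. Of the 31055 probes tested, 6990 were called higher without scaling and 2602 with spike-in scaling, against 949 with the scaling of the values above. Quantile normalization called 1043 probes higher and median scaling 1028. Normexp background correction called 4 of the 9 genes and 1210 probes higher. What set the number of the 9 genes called was not tested. Vim was called higher under each of these scalings, and Tagln was the gene whose sign changed. Endothelial markers, another cell type of the sinusoid, had a median of 0.20 with 1 of 12 called higher (Pecam1 0.27, Cdh5 0.63, neither called). Their summed level was 28.5 to 37.8 in STD and 29.6 to 42.1 in ATH mice. Portal fibroblast and mesothelial markers had a median of 0.31, and none of the 8 detected of 11 was called by limma (Thy1 1.34, Entpd2 0.26). Their summed level was 3.07 to 3.77 in STD and 3.26 to 6.44 in ATH mice, and the mesothelial genes Upk3b, Upk1b and Wt1 were not detected. Skeletal muscle markers, as a check for attached diaphragm, had a summed level of 0.88 to 1.13 and 0.868 to 1.04, and Ckm and Mb were not detected. Bile duct markers had 1 of 8 called higher, with a median of 0.05 and summed levels of 2.49 to 4.31 and 4.61 to 9.39 (Krt19 0.16, Krt7 0.42, neither called). Lymphocyte markers had none of 8 called by limma, with a median of 0.46 and summed levels of 1.56 to 2.12 and 1.33 to 3.8 (Cd3e -0.71, Cd3d 1.66). The hepatocyte markers had a median of -0.33 (0.11 without scaling), with Alb at -0.42 and Ttr at -0.22, neither called.

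**Figure D5:**
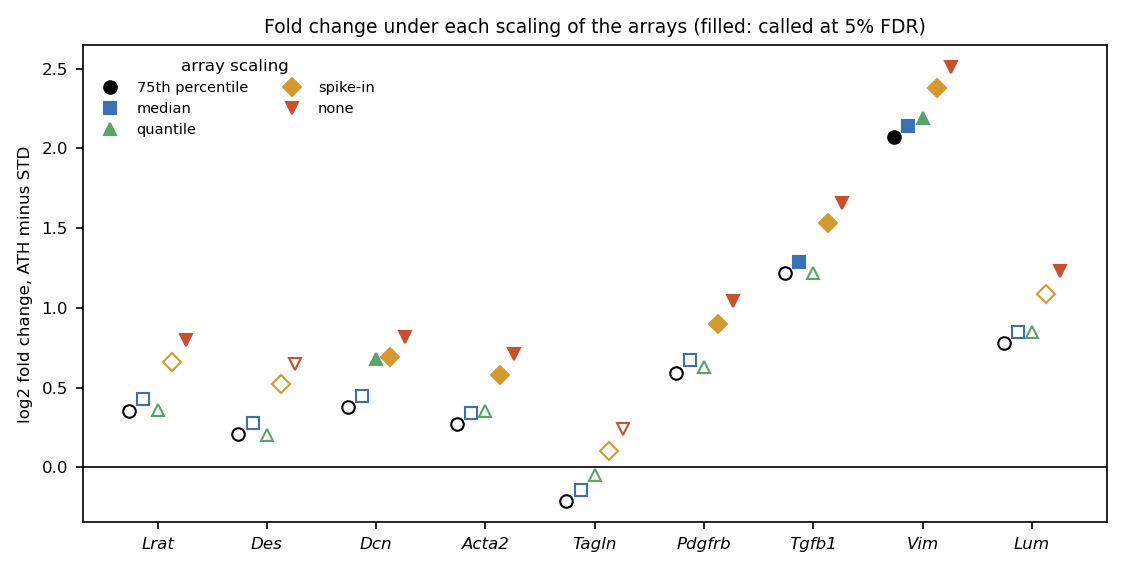
Log2 fold change (vertical axis, ATH minus STD) of the 9 genes under 5 scalings of the arrays, filled where called at 5%. Vim is filled under each scaling, Tagln changes sign, and every gene is highest without scaling.

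The genes whose profile over the 8 mice was most like that of the bright Acta2 probe were Dennd5a, Mob3c, 1810037I17Rik, Mphosph6 and Rp2, with root mean square differences of 0.052 to 0.084 log2 units between centred profiles, out of 16549 genes compared. The spread of Acta2 itself about its mean was 0.18. For Lrat they were Tmprss3, Misp3, Wdr5b, Pfn2 and Lce1l, at 0.14 to 0.168, with a spread of 0.347 for Lrat. None of the 10 genes was among the nearest 5 of either.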

How the data were processed

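Total liver RNA of 4 STD and 4 ATH mice was labelled with Cy3 and hybridised to Agilent whole mouse genome arrays, 1 mouse per array. The authors deposited the scanner output of Agilent Feature Extraction 9.5 per array, from which the processed signal, a linear intensity already background-corrected, was used. The deposited log2 values of the value table were used as an alternative. Outlier spots were left out, spots of a probe were averaged, and log2 signals were set against the 75th percentile of each array. Differences were tested with limma 3.58.1 (R 4.3.3) over 31055 detected probes, two-sided, with Benjamini-Hochberg adjustment at 5%. The limma step was run on simulated data in which each probe had the same spread in both diets. The spread of Vim differed between the diets, so that this run does not bear on its call. A gene was read by its brightest probe. The fold changes were recomputed in 20 alternative settings, among them normexp background correction with an offset of 50, other scalings, other filters, the study's unequal-variance test and each array left out. Per the file headers, same-numbered arrays of the diets had the same position on their slides, although the labels name no pairing. The correlations of deviations in the 4 pairs were 0.1001, 0.2296, 0.1815 and 0.1766. A block on the replicate number was fitted as one of the alternative settings. Named genes were all 10 genes by every probe, in each list up to 4 called genes with the largest change and a set of genes named whatever their values (some are not reported here), the first 2 genes of each marker list, and the 5 nearest profiles to Acta2 and Lrat. The genes and lists were chosen with earlier results of these data known. The number of mice limits the precision. Probe sequences and mm7 positions came from the array files.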

Additional observations from a re-analysis of the deposited data

Results flagged for a closer look

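In 30 groups of 4 arrays, which were the 15 detected probes in each diet, 1 array stood apart from its group. Lum read 1.18 in STD replicate 4, against 0.42 to 0.52 in the other STD mice, and the gap to the nearest of them was 0.861 of the group's range. Chance alone gives such a gap in about 1 of 20 groups.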

How the results depend on the processing

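Slide and diet could not be told apart, and with 4 mice per diet Vim alone passed. The number of the 9 genes called was 1, and became 4 with normexp background correction, 2 with quantile normalization, median scaling, detection on all 8 arrays or the mean of a gene's probes, 7 without scaling, 5 with spike-in scaling, and 0 with no detection filter, at the 1% threshold, in the study's unequal-variance test (the Methods' test) or with the replicate block. Leaving out each array gave 0 to 2. All detected probes called were 2483 (949 higher, 1534 lower), against 6394 with normexp (1210 higher, 5184 lower) and 7364 without scaling. The genes called with normexp, which were Vim, Tgfb1, Pdgfrb and Dcn, were all higher. The probe count was 1086 with no detection filter, 164 at 1% and 1322 with the replicate block. It was 22 in the Methods' test (7102 at an unadjusted p under 0.05) and 394 to 3979 with each array left out. In the 7 pathway lists together, 19 genes were called, against 33 with normexp, 60 without scaling, 37 with spike-in scaling, 6 with no detection filter, 1 at 1%, 0 in the Methods' test and 11 with the replicate block, and 3 to 29 with each array left out. Without ATH replicate 2 the probe count was highest, and without STD replicate 3 lowest. Of the 180 fold changes of the 9 genes under 20 alternatives, 148 kept their direction and their side of the threshold, 19 passed only under the alternative, 10 no longer passed, all of them Vim, and 3 reversed. The 3 were Tagln, at 0.24 without scaling, 0.10 with spike-in scaling and 0.09 with the mean of a gene's probes, where the array level or the second probe enters by construction. The cause of the other changes was not tested. Besides Vim, the block changed no call of the 9 genes. Lox, above background on no STD array, did not pass the detection filter, and no fold change is given for it above. Fitted without that filter or on the deposited values, it differed by 2.19 (SE 0.91 and 0.88, limma adjusted p = 0.19 and 0.148). Both fits rest on STD values not well above background.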
